A study of Mus musculus with 17 samples.

Results

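Spleens of mice given poly(I:C) were compared with spleens of mice given pppNS, an injected RNA whose name the labels do not spell out. The comparison rested on 6 of the 17 libraries of the series, 3 per group, and on the 13309 of 38340 genes that reached at least 1 CPM in at least 2 of these 6 libraries. The other libraries came from mice given SLR10 or SLR14 (3 each), from a jetPEI vehicle control (2) and from naive, untreated mice (3). The 5 vehicle and naive libraries served as controls. All mice carried the strain label CB57BL/6NCrl, and no genotype, age, sex or time after injection was given for any group. The injection protocol, which is the same text for every library, names only the SLRs: RNA bound to in vivo-jetPEI, a cationic polymer that carries it into cells (N/P ratio 8), and injected into a vein at 25 µg in 200 µl. Whether poly(I:C) and pppNS were given at that dose is not stated. Each treated group stands for 1 agent at 1 unstated time, and whether the replicates were separate animals is not stated, so the p-values measure the spread between these libraries.

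Poly(I:C), a synthetic double strand of inosine and cytidine polymers, is an RNA that mammalian cells read as a sign of viral infection. It is sensed in endosomes by Toll-like receptor 3 and in the cytoplasm by MDA5 (the product of Ifih1) and RIG-I (the product of Ddx58), while RIG-I is known for binding short RNA with a 5′-triphosphate end. These receptors switch on type I and type III interferon genes and NF-kB targets, secreted interferon then induces a broad set of interferon-stimulated genes in neighbouring cells, and natural killer and T cells add interferon gamma. In the spleen, macrophages and dendritic cells of the red pulp and marginal zone take up particles from the blood.

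The levels of the interferon genes separated the groups most widely, while many interferon-stimulated genes were high in both, so promoters of both kinds are shown here. Each stretch is the 200 bases upstream of the RefSeq start in build GRCm38.p6, read on the gene's strand. Capitals mark matches to the letters GAAA, any 2 bases and GAAA again (the core of the interferon-stimulated response element, ISRE), to AANNGAAA (a site read by interferon regulatory factors, IRFs, which can lie within an ISRE core) or to the NF-kB motif, on either strand. Ifnb1 encodes interferon beta, and its stretch is at chr4:88522795-88522994 on the minus strand. Ifna4 encodes an interferon alpha (chr4:88841616-88841815, plus strand). Isg15 encodes a ubiquitin-like protein (chr4:156200819-156201018, minus strand), Ifit1 a protein that binds viral RNA (chr19:34640689-34640888, plus strand) and Gbp2 a guanylate-binding protein induced by interferon gamma (chr3:142620463-142620662, plus strand).

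Ifnb1: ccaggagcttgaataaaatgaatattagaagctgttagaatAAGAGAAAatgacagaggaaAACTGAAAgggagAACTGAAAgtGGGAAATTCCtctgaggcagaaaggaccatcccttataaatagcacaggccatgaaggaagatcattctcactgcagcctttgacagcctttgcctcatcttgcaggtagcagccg

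Ifna4: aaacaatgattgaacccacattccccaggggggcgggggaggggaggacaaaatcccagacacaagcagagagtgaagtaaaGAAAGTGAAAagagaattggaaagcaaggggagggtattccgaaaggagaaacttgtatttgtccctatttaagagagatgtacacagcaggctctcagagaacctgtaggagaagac

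Isg15: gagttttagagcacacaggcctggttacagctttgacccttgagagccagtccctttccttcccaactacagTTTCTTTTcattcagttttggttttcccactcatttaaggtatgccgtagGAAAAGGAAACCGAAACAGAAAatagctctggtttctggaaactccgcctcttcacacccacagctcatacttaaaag

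Ifit1: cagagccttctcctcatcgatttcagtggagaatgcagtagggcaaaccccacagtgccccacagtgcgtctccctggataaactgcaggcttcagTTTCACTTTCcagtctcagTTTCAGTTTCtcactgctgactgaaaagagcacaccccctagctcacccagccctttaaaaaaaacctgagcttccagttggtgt

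Gbp2: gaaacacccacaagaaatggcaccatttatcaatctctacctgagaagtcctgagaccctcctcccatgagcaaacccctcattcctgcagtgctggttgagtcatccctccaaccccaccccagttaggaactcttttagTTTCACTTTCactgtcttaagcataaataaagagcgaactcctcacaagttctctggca

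The deposited values are called CPM in the header, but the named genes of a library do not share 1 common sum, so a value is a level on the authors' own scale. Depth ran from 28.5 M to 41.7 M reads over the 6 libraries, and named genes took 18.2 M to 24.9 M. Library 3 of pppNS stood apart. Its ribosomal protein genes had a mean level of 10.07 on the log2(CPM + 0.5) scale, against 8.30 to 9.41 in the other poly(I:C), pppNS and control libraries. Its lines without a gene name held 46.1% of reads, against 33.7% to 39.9% in the other 5 libraries, and genes with the shortest transcripts lay 0.66 above their usual level (log2). Its correlations with the other pppNS libraries were 0.890 and 0.880, against 0.984 between those. Library 1 of poly(I:C) had the lowest erythroid level, a mean of 3.24, against 9.10 and 7.94 in libraries 2 and 3 of the group. Spleen markers were present in all 6 libraries: the 21 B cell genes tested had mean levels of 6.20 to 6.94 and the 18 red pulp macrophage genes 5.42 to 6.56. In whole tissue, fewer cells of a type and less RNA per cell cannot be told apart.

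Poly(I:C) spleens held more interferon mRNA, more interferon gamma mRNA and more of the genes linked to it than pppNS spleens, and less of several T cell, B cell, dendritic cell and endothelial genes. Of the 13309 genes tested with limma, 684 passed at a Benjamini-Hochberg adjusted p under 0.05, which is 5.14%. Of these, 419 (3.15% of genes tested) were higher with poly(I:C) and 265 (1.99%) were lower. The median log2 difference was 1.71 among the higher genes and -1.38 among the lower ones, and 668 of the 684 differed by at least 2-fold. The threshold therefore passed few small differences: only 34.4% of all genes had a 95% interval that fitted within 2-fold. The split depended on the scaling and the test: 61.3% of calls were higher in the deposited scale, 52.5% with median-of-ratios scaling (271 higher, 245 lower), 52.8% with quantile scaling (160 and 143), 35.0% with each library scaled to 1 common sum over named genes (49 and 91), and 38.8% in edgeR on recovered reads (194 and 306). The scaling to a common sum moved the median of all genes by -0.26 and edgeR moved it by -0.14 on the log2 scale. The number of calls depended on single libraries as well, with 1768 calls without pppNS library 3 and 286 without pppNS library 1. It was 16, 26 and 10 without poly(I:C) library 1, 2 or 3, and 10 without pppNS library 2. Only 10 genes were called in all 6 of these fits. All of them were type I or type III interferon genes that reached 1 CPM with poly(I:C) only.

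**Figure D1:**
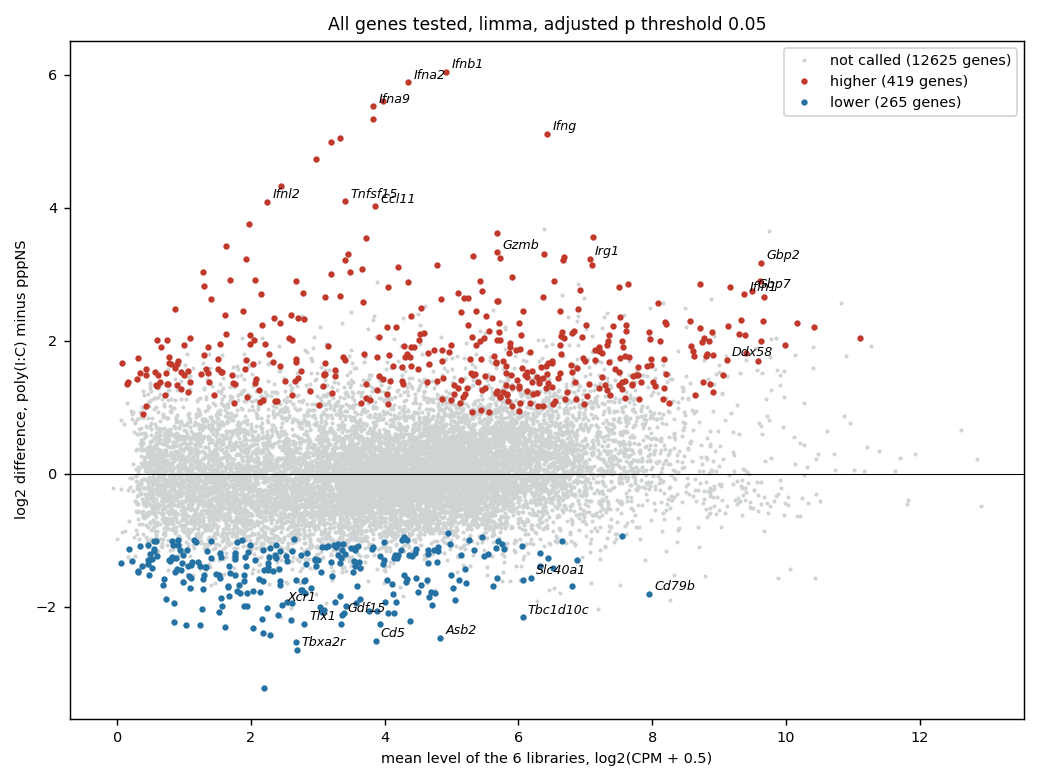
Log2 difference between poly(I:C) and pppNS (vertical axis) against the mean level of the 6 libraries on the log2(CPM + 0.5) scale (horizontal axis), 1 point per gene tested. Red points are the 419 genes higher and blue points the 265 genes lower with poly(I:C) at an adjusted p under 0.05 (limma), and the interferon genes form the uppermost red points. The type I and type III interferon genes tested reached 1 CPM with poly(I:C) only, so they had to differ to be tested.

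The 5 controls place these differences. Of the 419 higher genes, 415 lay above all 5 controls in every poly(I:C) library. In pppNS libraries, 210 of the 419 also lay above all controls, 202 overlapped them and 7 lay below. Of the 265 lower genes, 263 lay below all controls in every poly(I:C) library, while pppNS overlapped the controls for 144, lay below for 114 and above for 7. Across all genes tested, 26.4% lay above every control with poly(I:C) and 12.9% with pppNS. At the other side, 21.6% lay below every control with poly(I:C) and 7.70% with pppNS.

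The type I and type III interferon genes were nearly absent with pppNS and abundant with poly(I:C). Ifnb1, on chromosome 4 at 88522025 to 88522774 (GENCODE vM21, build GRCm38), stood at 76.9, 45.6 and 55.2 CPM in the 3 poly(I:C) libraries and at 0.617, 0.212 and 0.356 CPM in the 3 pppNS libraries. The groups were far apart, and controls held 0 to 0.0596 CPM. The log2 difference was 6.05 ± 0.29 (SE, adjusted p = 0.0012). Ifnb1 reached 1 CPM with poly(I:C) only, so it had to differ to be tested and the p-value adds no support. On pooled reads, 5561 against 41, the level was 161-fold higher with poly(I:C) (95% counting interval 118 to 224).

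Interferon alpha genes lie beside Ifnb1 on chromosome 4. Ifna4 held 44.0, 21.1 and 26.1 CPM with poly(I:C) and 0.176, 0.149 and 0 CPM with pppNS, from 2888 and 13 reads. Ifna2 held 55.8, 26.2 and 37.2 CPM with poly(I:C) and 0.265, 0.127 and 0.0711 CPM with pppNS. In both genes poly(I:C) library 1 was the highest and every pppNS library lay under 0.3 CPM. The read ratios of Ifna2, Ifna4, Ifna5, Ifna9, Ifna12, Ifna14 and Ifna1 ran from 192 to 487, each resting on 4 to 17 pppNS reads. The interferon alpha genes are near-identical copies, and how the authors' counting split shared reads among them is unknown, so the order among them is uncertain. Ifna13 had 101 reads with poly(I:C) and 0 with pppNS, and was at least 39.9-fold higher against a floor of 3 reads over the group.

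Type III interferons, encoded by Ifnl2 and Ifnl3, act mainly on epithelial surfaces. Ifnl2 stood at 9.94, 6.86 and 8.46 CPM with poly(I:C) and at 0.0294, 0.0212 and 0 CPM with pppNS, the latter from 2 reads (ratio 464, 95% counting interval 128 to 3837). Ifnl3 stood at 7.08, 3.41 and 4.96 CPM with poly(I:C) and had 1 read in all with pppNS. Neither gene had a read in any control. The 2 genes are close copies of each other, so their separate levels are uncertain too.

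In total 16 of the 20 listed interferon genes were in the table and 13 were tested. All 13 reached 1 CPM with poly(I:C) only, so that they had to differ to be tested, and their number says nothing further. Of the 3 not tested, Ifne had no read in any of the 6 libraries and Ifnk none in them either, and Ifnz had 35 reads with poly(I:C) and 2 with pppNS. In pppNS libraries, 4 of the 13 lay above all 5 controls, against 12.9% of all genes tested. Such levels can rest on single reads. Ifna14 counted among the 4 with 0.0356 CPM in pppNS library 3, the worth of 1 read there, against a control maximum of 0.0238 CPM. The number at 0 was 2, 4 and 9 of the 13 in pppNS libraries 1, 2 and 3.

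**Figure D2:**
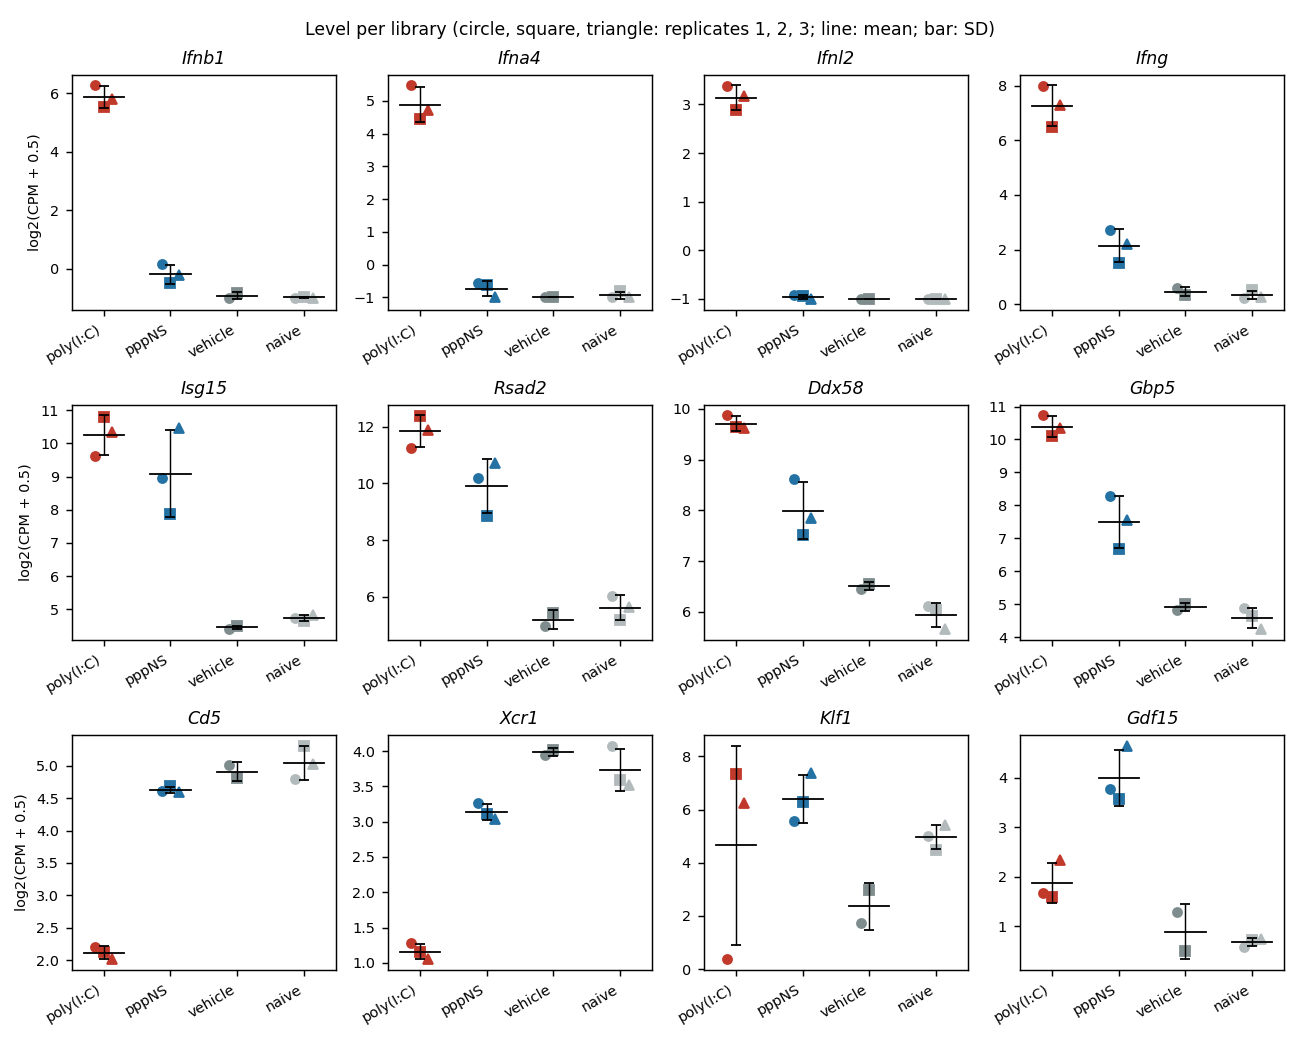
Level of 12 genes on the log2(CPM + 0.5) scale in each library of the poly(I:C), pppNS, vehicle and naive groups, with the mean (line) and SD (bar). Among the groups shown, interferon genes (top row) are highest with poly(I:C), and Isg15 overlaps between poly(I:C) and pppNS. Cd5 and Xcr1 are low with poly(I:C), and Gdf15 is highest with pppNS.

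Among the sensors of RNA and DNA and their signalling proteins, 8 of 27 (29.6%) were higher with poly(I:C) and none lower. Of all genes tested, 3.15% were higher and 1.99% lower. The list's median log2 difference was 1.23, against 0.00 for all genes tested. Ifih1, which encodes MDA5, stood at 1188, 1159 and 1046 CPM with poly(I:C) and at 301, 99.3 and 174 CPM with pppNS, with controls at 17.7 to 26.2 CPM. Every poly(I:C) library lay above every pppNS library, and both groups lay above the controls (log2 difference 2.70 ± 0.42, adjusted p = 0.028). Ddx58, which encodes RIG-I, stood at 936, 800 and 784 CPM against 390, 182 and 230 CPM, a smaller difference of 1.72 (adjusted p = 0.042). Tlr3, the endosomal receptor, stood at 137, 85.4 and 94.3 CPM against 53.9, 25.1 and 41.8 CPM without overlap and was not called (1.42, adjusted p = 0.063). Eif2ak2, the kinase PKR, and Mb21d1, the DNA sensor cGAS, were also higher, by 1.80 and 2.26. The adaptors Mavs (-0.20) and Ticam1 (-0.26) were not called. The list gave 14 calls without pppNS library 3, 0 without poly(I:C) library 1, 3 in edgeR, 3 with quantile scaling, 0 with common-sum scaling and 2 with the replicate block.

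The interferon-stimulated genes gave another picture: they were high in both groups. Of the 62 tested, 59 lay above all 5 controls with poly(I:C) and 56 with pppNS, against 26.4% and 12.9% of all genes tested. Between the groups, 13 of 62 (21.0%) were higher with poly(I:C), against 3.15% of all genes tested, and none lower. The median log2 difference was 1.48, and 51 lay higher without overlap, against 19.5% of all genes. Isg15 stood at 785, 1777 and 1294 CPM with poly(I:C) and at 494, 233 and 1405 CPM with pppNS, with controls at 20.9 to 28.1 CPM. The groups overlapped, since pppNS library 3 lay above 2 of the poly(I:C) libraries (log2 difference 1.16 ± 0.68, adjusted p = 0.377). Ifit1 stood at 1791, 1603 and 1597 CPM against 548, 209 and 976 CPM without overlap and was not called (1.78, adjusted p = 0.119).

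Among the members that were called, Oasl1, which limits translation of Irf7 mRNA, stood at 849, 924 and 976 CPM against 264, 129 and 219 CPM (2.23, adjusted p = 0.027). Zbp1, a sensor of Z-form nucleic acid, was higher by 2.31 and Slfn4, a myeloid Schlafen gene, by 2.57. Gbp7, a guanylate-binding protein, was higher by 2.75. The antiviral genes Mx1 (2.04, adjusted p = 0.052) and Rsad2 (1.92, adjusted p = 0.104) had no overlap and missed the threshold. Of the 62 genes, 41 were called without pppNS library 3, none without poly(I:C) library 1 and 53 with all 17 libraries in 1 model. The 13 calls fell to 2 in edgeR, 2 with quantile scaling, 1 with common-sum scaling and 2 with the replicate block. The mean level of the list was 8.97, 9.05 and 8.93 with poly(I:C) and 7.89, 6.89 and 7.82 with pppNS (log2), so the spread lay within pppNS.

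**Figure D3:**
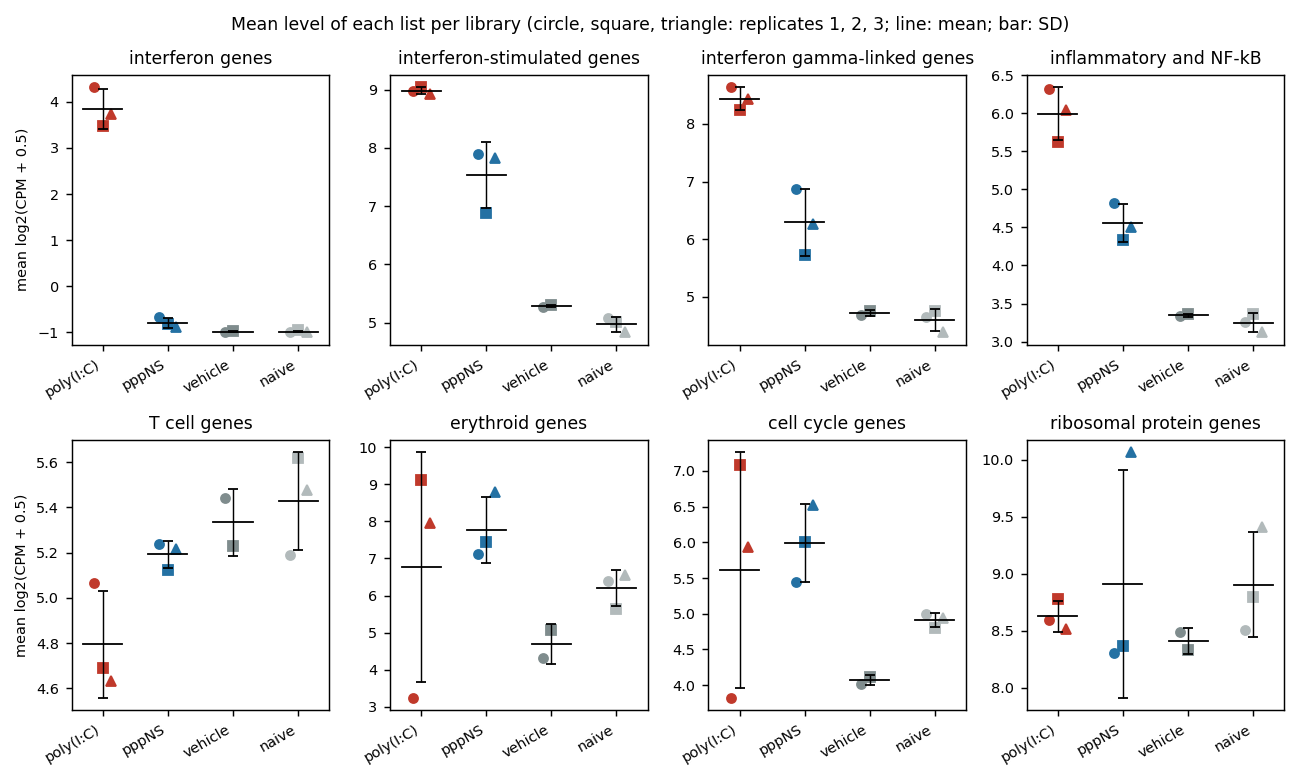
Mean log2(CPM + 0.5) level of 8 gene lists in each library of the poly(I:C), pppNS, vehicle and naive groups, with the group mean (line) and SD (bar). The interferon list is near -1 in pppNS and control libraries, the interferon-stimulated list is above the controls in both treated groups, and erythroid and cell cycle levels are lowest in poly(I:C) library 1 and ribosomal levels highest in pppNS library 3.

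Interferon gamma, the cytokine of natural killer and T cells, differed widely as well. Ifng stood at 256, 90.2 and 155 CPM with poly(I:C) and at 6.03, 2.36 and 4.12 CPM with pppNS, and controls held 0.691 to 1.00 CPM. All poly(I:C) libraries lay far above all pppNS libraries, which themselves lay above the controls. The log2 difference was 5.12 ± 0.46 (adjusted p = 0.011), and the pooled read ratio was 43.5 (95% counting interval 39.5 to 48.0). The counting interval leaves out the spread between libraries. In limma, which takes it in, the difference was 34.7-fold with a 95% interval of 16.3 to 74.2.

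Among Ifng and the genes known to induce it, 6 of 16 (37.5%) were higher with poly(I:C), against 3.15% of all genes tested, and none lower. Il27, a subunit of the cytokine IL-27, stood at 85.5, 47.4 and 80.1 CPM against 8.58, 2.59 and 12.7 CPM (3.27). Il12rb2 and Il12rb1, the receptor chains of IL-12, were higher by 2.89 and 2.49, and Il15ra, which presents IL-15, by 2.23. Eomes, a transcription factor of natural killer and memory T cells, was higher by 1.91. Il12b, the shared chain of IL-12 and IL-23, overlapped between the groups, at 25.9, 15.0 and 24.4 CPM against 26.9, 14.4 and 5.30 CPM (0.70, adjusted p = 0.521). The list gave 9 calls without pppNS library 3, 1 without poly(I:C) library 1, 5 in edgeR and with quantile scaling, 2 with common-sum scaling and 4 with the replicate block.

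Of 27 genes linked to interferon gamma, 20 (74.1%) were higher with poly(I:C), against 3.15% of all genes tested, and none lower. Their median log2 difference was 2.08. The list holds guanylate-binding proteins and immunity-related GTPases, which attack vacuoles of intracellular microbes. Gbp2 stood at 1586, 1213 and 1410 CPM with poly(I:C) and at 239, 66.3 and 228 CPM with pppNS (3.18). Tgtp1, an immunity-related GTPase, stood at 290, 232 and 229 CPM against 49.3, 16.2 and 10.7 CPM (3.57 ± 0.53, adjusted p = 0.027). In both genes no pppNS library came near the lowest poly(I:C) library. Gbp5 (2.89), Cd274, which encodes PD-L1 (2.85), Socs1, a brake on cytokine signalling (2.80), and Irf1 (1.82) were also higher, and Ciita (0.44) and Nos2 (1.15) were not called. With poly(I:C) 26 of the 27 lay above all controls, and with pppNS 19, against 26.4% and 12.9% of all genes tested. The list gave 24 calls without pppNS library 3 and 0 without poly(I:C) library 1. It gave 11 calls in edgeR, 5 with quantile scaling, 3 with common-sum scaling and 9 with the replicate block. Ido1, 1 of the 20, reached 1 CPM with poly(I:C) only. Type I interferon also induces many of these genes, and the lists share members.

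Chemokines and NF-kB targets added to this response. Of 25 chemokine genes, 7 (28.0%) were higher with poly(I:C), against 3.15% of all genes tested, and none lower. Ccl11, an attractant of eosinophils, stood at 41.0, 15.9 and 23.8 CPM with poly(I:C) and at 1.09, 0.615 and 1.67 CPM with pppNS (4.02, adjusted p = 0.013). Cxcl9, an attractant of activated T cells, stood at 1323, 662 and 979 CPM against 209, 53.3 and 219 CPM (2.81, adjusted p = 0.048). Neither gene overlapped between the groups. Cx3cl1 (3.04), Ccl5 (2.85), Cxcl11 (2.72), Cxcl2 (2.06) and Ccl22 (1.62) were the others called. Cxcl10, at 3461, 2149 and 3021 CPM against 1153, 400 and 1216 CPM, had no overlap and was not called (1.77, adjusted p = 0.098). The homeostatic chemokines Ccl19 (-0.54), Ccl21a (-0.78) and Cxcl13 (0.19) were not called.

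Of 37 inflammatory cytokines and NF-kB targets, 14 (37.8%) were higher with poly(I:C), against 3.15% of all genes tested, and none lower. All 37 differences were positive (median 1.30). Il6 stood at 97.9, 42.6 and 51.4 CPM with poly(I:C), at 12.0, 3.99 and 15.6 CPM with pppNS and at most at 0.280 CPM in controls (2.64, adjusted p = 0.046). Irg1, the enzyme that makes itaconate in macrophages, stood at 352, 155 and 210 CPM against 33.5, 9.83 and 38.8 CPM (3.24, adjusted p = 0.036). Both genes were above the controls in every library of either treated group. Csf3, the growth factor of neutrophils, was higher by 2.82 and Csf2 by 2.40, though both reached 1 CPM with poly(I:C) only and so had to differ to be tested, and Ptgs2, the inducible cyclooxygenase, by 2.59. Tnf stood at 154, 99.8 and 144 CPM against 56.6, 42.3 and 83.3 CPM (1.15, adjusted p = 0.088), and Il1b was not called either (0.73). Without pppNS library 3 the chemokine list gave 10 calls and the inflammatory list 21, and without poly(I:C) library 1 each gave 0. Calls in edgeR, with quantile scaling, with common-sum scaling and with the replicate block numbered 4, 4, 2 and 5 for chemokines and 8, 6, 1 and 6 for the inflammatory list.

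**Figure D4:**
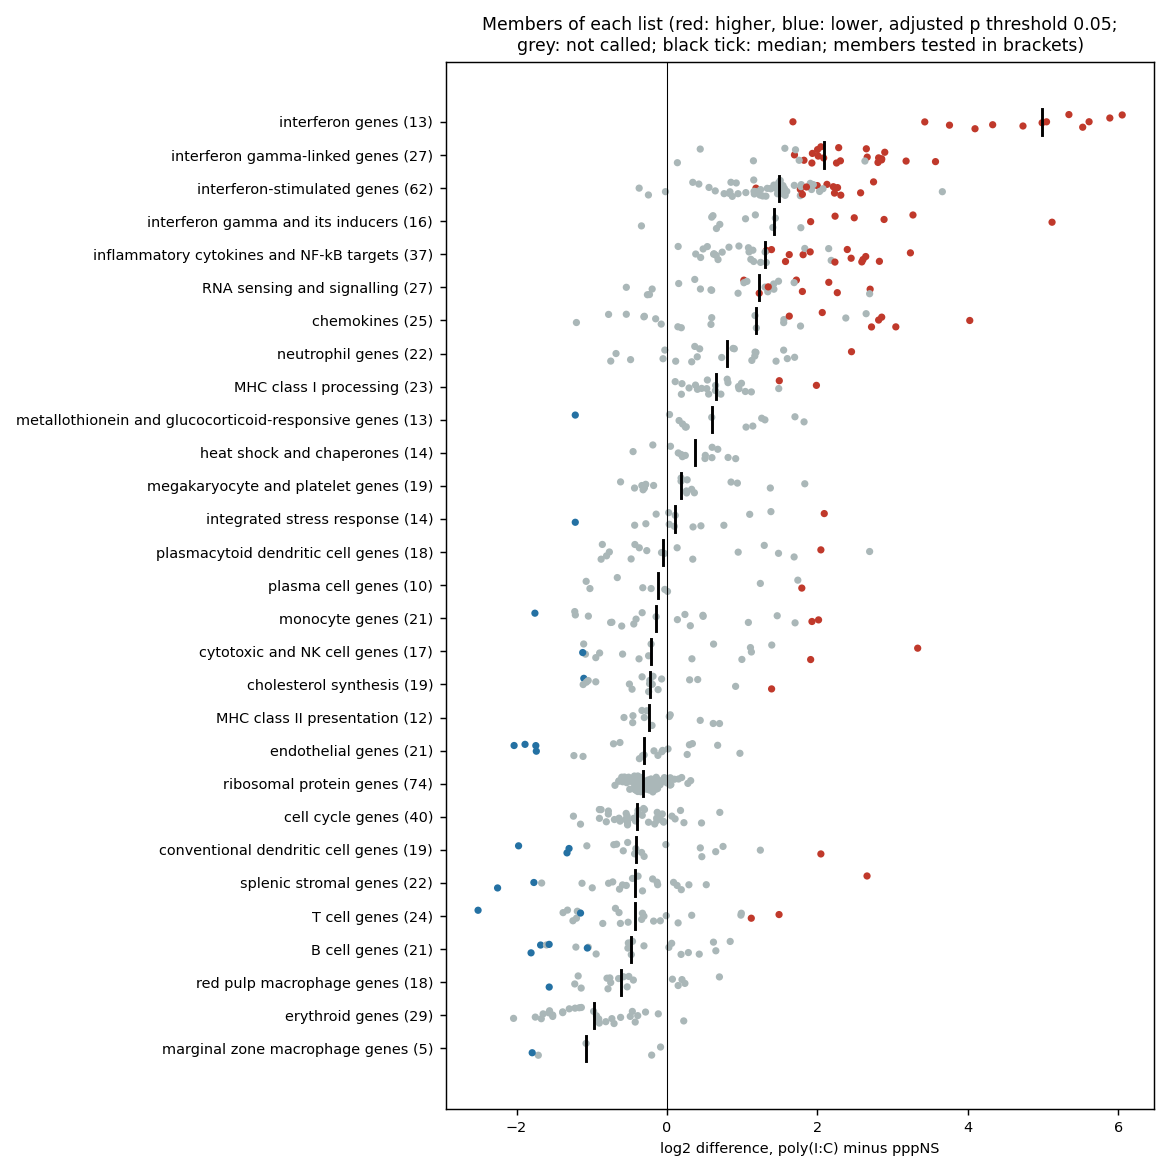
Log2 difference between poly(I:C) and pppNS (horizontal axis) of each tested member of 29 gene lists (rows), with the list's median as a black tick and members called higher in red and lower in blue. The interferon, interferon gamma-linked and interferon-stimulated lists have the highest medians, at 4.99, 2.08 and 1.48, and the marginal zone macrophage list has the lowest, -1.08. All 13 members of the interferon list reached 1 CPM with poly(I:C) only, so they had to differ to be tested.

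Antigen presentation differed less. Of 23 genes of MHC class I processing, 2 (8.70%) were higher, against 3.15% of all genes tested, and none lower (median 0.65). Nlrc5, the activator of class I transcription, was higher by 1.99, and Tapbpl, a peptide editor, by 1.49. All 23 differences were positive, and 12 were called without pppNS library 3. None of the 23 was called without poly(I:C) library 1, in edgeR, with quantile or common-sum scaling, or with the replicate block. Of 12 class II genes none was called by limma, edgeR or DESeq2, and 2 had an unadjusted p under 0.05 (median -0.23, with 1 call without pppNS library 3). H2-DMb1, which loads peptides, stood at 42.6, 33.1 and 37.8 CPM against 45.7, 51.7 and 75.1 CPM without overlap (adjusted p = 0.249).

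Genes of the immune cells moved in both directions within a list. Of 17 cytotoxic and natural killer cell genes, 2 were higher, Eomes and Gzmb, and 1 was lower. The called share was 17.6%, against 5.14% of all genes tested. Gzmb, the protease granzyme B, stood at 114, 63.5 and 98.3 CPM with poly(I:C) and at 14.3, 5.2 and 7.93 CPM with pppNS (3.33 ± 0.40, adjusted p = 0.016). The receptor gene Klrd1 was lower with poly(I:C), at 7.23, 6.76 and 6.50 CPM against 13.1, 14.6 and 19.2 CPM (-1.12, adjusted p = 0.045). Gzmb thus differed in the direction opposite to that of Klrd1, and Prf1, the pore-forming partner of granzymes, was not called (-0.25).

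Among 24 T cell genes, 2 were lower and 2 higher, a called share of 16.7%, against 5.14% of all genes tested. Cd5, a brake on T cell receptor signalling, stood at 4.12, 3.87 and 3.54 CPM with poly(I:C) and at 23.9, 25.1 and 23.6 CPM with pppNS, with controls at 27.1 to 39.2 CPM. Both groups had narrow spreads and poly(I:C) lay 5.70-fold lower (log2 difference -2.51 ± 0.20, adjusted p = 0.0058). Lef1, a transcription factor of naive T cells, was lower by a log2 difference of -1.15. Ccr7, which guides cells to T cell zones, stood at 172, 107 and 150 CPM against 68.5, 63.7 and 60.7 CPM and was higher by 1.12 (adjusted p = 0.0499). The T cell receptor complex genes Cd3e (-0.62) and Cd3g (-1.20) and the co-receptor gene Cd4 (-0.52) were not called. Without pppNS library 3, 10 of the 24 were called, 3 higher and 7 lower. No T cell gene was higher in edgeR, with quantile or common-sum scaling, or with the replicate block, where 4, 1, 2 and 1 were lower.

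Of 21 B cell genes, 4 (19.0%) were lower with poly(I:C), against 1.99% of all genes tested, and none higher. Cr2, the complement receptor of marginal zone and follicular B cells, stood at 79.4, 42.4 and 41.9 CPM against 178, 177 and 150 CPM, with controls at 246 to 368 CPM (-1.68, adjusted p = 0.036). Cd79b, a chain of the B cell receptor, stood at 110, 93.1 and 105 CPM against 248, 293 and 641 CPM (-1.81, adjusted p = 0.047). Dtx1 (-1.57) and Fcrla (-1.06) were the others, while Cd22 (0.19) and Ms4a1 (0.28) were not called. Without pppNS library 3, 8 were lower, and without poly(I:C) library 1 or with the replicate block none was. Of the B cell genes 5 were lower in edgeR, 4 with quantile scaling and 1 with common-sum scaling. Among 10 plasma cell genes only Prdm1, which drives plasma cell and effector T cell differentiation, was called, at 33.9, 19.5 and 22.8 CPM against 10.1, 5.45 and 5.62 CPM (1.79).

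Conventional dendritic cell genes were 3 lower and 1 higher of 19, a called share of 21.1%, against 5.14% of all genes tested. Xcr1, the chemokine receptor that marks cross-presenting dendritic cells, stood at 1.92, 1.72 and 1.58 CPM with poly(I:C) and at 9.08, 8.09 and 7.72 CPM with pppNS, with controls at 11.0 to 16.4 CPM (-1.97 ± 0.21, adjusted p = 0.013). Sirpa, an inhibitory receptor of myeloid cells, stood at 55.0, 67.3 and 79.7 CPM against 166, 155 and 175 CPM (-1.30), and Naaa was lower by a log2 difference of -1.33. Irf8, needed for dendritic cell development and itself induced by interferon gamma, was higher, at 851, 538 and 720 CPM against 227, 176 and 117 CPM (2.05). Clec9a (-0.52) and Batf3 (-0.02), which mark the same subset as Xcr1, were not called. Of 18 plasmacytoid dendritic cell genes only Irf8 was called, and Siglech, which marks these cells, was not (-0.48, adjusted p = 0.271). That share, 5.56%, is near the 5.14% of all genes tested.

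Among macrophage, monocyte and neutrophil genes, single genes were called. The called shares of the red pulp macrophage list (5.56%) and the neutrophil list (4.55%) were near the 5.14% of all genes tested. Their single calls therefore describe genes and not the lists. The shares were 14.3% for the monocyte list and 20.0% for the short marginal zone macrophage list. Slc40a1, the iron exporter of red pulp macrophages, stood at 29.9, 40.1 and 38.5 CPM with poly(I:C) and at 91.4, 132 and 102 CPM with pppNS, with controls at 213 to 387 CPM. Both groups lay below the controls, poly(I:C) the lower (-1.57 ± 0.24, adjusted p = 0.027), and it was the only call among 18 red pulp macrophage genes. Cd209b, the lectin SIGN-R1 of marginal zone macrophages, was lower by a log2 difference of -1.79, the only call of 5. Of 21 monocyte genes, Cd14, the co-receptor for lipopolysaccharide, was higher (2.01), Vcan was higher (1.93) and Cx3cr1, the receptor of Cx3cl1, was lower (-1.76). Cx3cr1 and its ligand gene thus differed in opposite directions. Of 22 neutrophil genes only Mmp8, a collagenase of neutrophil granules, was called, at 103, 50.4 and 56.8 CPM against 10.7, 12.6 and 12.0 CPM (2.45). Ly6g was not called (0.88), and without pppNS library 3 the list gave 8 calls, all higher. With common-sum scaling no monocyte or neutrophil gene was called, and no conventional dendritic cell gene was higher.

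Among structural cells, 4 of 21 endothelial genes (19.0%) were lower with poly(I:C), against 1.99% of all genes tested, and none higher. However, Sox17 and Clec14a, 2 of the 4, reached 1 CPM with pppNS only and so had to differ to be tested. Egfl7, a factor secreted by endothelium, stood at 4.32, 5.13 and 4.80 CPM against 17.6, 19.0 and 20.2 CPM (-1.89, adjusted p = 0.013). The transcription factors Sox17 (-2.03) and Sox18 (-1.74) and the membrane lectin Clec14a (-1.74) were also lower, while the pan-endothelial genes Cdh5 (0.97), Pecam1 (-0.06) and Kdr (-0.07) were not called. Of 22 stromal genes, 13.6% were called, against 5.14% of all genes tested. Tlx1, a transcription factor required for spleen formation, stood at 2.00, 1.56 and 2.04 CPM against 9.49, 14.0 and 9.28 CPM (-2.25, adjusted p = 0.014). Pdgfrb, a receptor of pericytes, was lower too (-1.77), and Fap, a protease of activated fibroblasts, was higher, at 14.8, 13.4 and 14.8 CPM against 2.12, 1.08 and 2.63 CPM (2.66). Without poly(I:C) library 1, the cell type lists gave 1 call in all, a T cell gene lower with poly(I:C).

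Other large decreases included Tbxa2r, the thromboxane receptor, at 0.960, 1.36 and 1.46 CPM against 8.5, 12.0 and 11.2 CPM (-2.65). Asb2, a ubiquitin ligase subunit, stood at 7.51, 7.15 and 9.15 CPM against 54.7, 60.0 and 29.5 CPM (-2.47). Neither gene overlapped between the groups, and in each every poly(I:C) library lay below every control. Rhof (-2.26), Xkrx (-2.19), Tbc1d10c (-2.16) and Cxxc5 (-2.10) were also among the large decreases, with Cd5, Tlx1 and Gdf15. Gdf15, a stress-induced cytokine, differed from these: it stood at 2.71, 2.53 and 4.54 CPM with poly(I:C), at 13.1, 11.5 and 24.6 CPM with pppNS and at 0.914 to 1.95 CPM in controls (-2.13, adjusted p = 0.035). Here both treated groups lay above the controls, and pppNS lay the higher. Among the large increases outside these lists, Tnfsf15, a TNF family cytokine, stood at 25.2, 15.3 and 17.8 CPM against 1.44, 0.913 and 0.0356 CPM (4.10, adjusted p = 0.016).

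Stress and metabolic lists held single calls, and 5.14% of all genes tested were called. The called share was 14.3% for integrated stress response, 7.69% for metallothionein and glucocorticoid-responsive and 10.5% for cholesterol synthesis genes. Atf3, a stress-induced transcription factor, stood at 117, 86.4 and 111 CPM with poly(I:C) against 32.5, 15.8 and 27.1 CPM (2.09), and Ddit4, an inhibitor of mTORC1, was lower (-1.22), the 2 calls of 14 integrated stress response genes. Ddit4 was also the 1 call of 13 metallothionein and glucocorticoid-responsive genes. Of 19 cholesterol synthesis genes, Insig1, which holds back cholesterol synthesis, stood at 48.7, 33.0 and 35.7 CPM with poly(I:C), at 18.8, 14.0 and 11.3 CPM with pppNS and at 19.4 to 28.5 CPM in controls. Poly(I:C) thus lay above the controls and pppNS below them (1.39, adjusted p = 0.042). Dhcr7, the last enzyme of the pathway, was lower (-1.11). None of 14 heat shock, 19 megakaryocyte and platelet, and 74 ribosomal protein genes was called by limma or edgeR; 4, 2 and 0 had an unadjusted p under 0.05, and DESeq2 called 2, 2 and 0. The ribosomal median was -0.32, and 0.28 without pppNS library 3.

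Erythroid and cell cycle genes varied widely between libraries of a group, and no difference between the groups could be called. None of 29 erythroid genes was called by limma, edgeR or DESeq2, and none had an unadjusted p under 0.05. The erythroid mean level was 3.24, 9.10 and 7.94 with poly(I:C) and 7.11, 7.44 and 8.79 with pppNS (log2), against 4.31 to 6.56 in controls. Klf1, the transcription factor of red cell development, stood at 0.790, 161 and 75.9 CPM with poly(I:C) and at 46.4, 78.4 and 164 CPM with pppNS. Poly(I:C) library 1 was the lowest of the 6 and poly(I:C) library 2 was close to the highest, pppNS library 3, and the list's median of -0.98 turned to 0.74 without poly(I:C) library 1. The 40 cell cycle genes, none of them called by any of the 3 tools or under 0.05 unadjusted, moved with the erythroid list, at 3.82, 7.08 and 5.94 against 5.44, 6.00 and 6.52, with a median of -0.40 that turned to 0.49 without that library. With pppNS 23 of the 29 erythroid and 33 of the 40 cell cycle genes lay above all 5 controls, against 12.9% of all genes tested. With the erythroid level as a covariate, 323 genes were called, 204 higher and 119 lower; its part in the other results was not tested further.

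Promoter letters were counted in RefSeq windows from 250 bases before to 50 after the start (GRCm38.p6), which matched 10183 of the genes tested. The ISRE core (GAAA, any 2 bases, GAAA) was in 16.9% of the 308 higher genes with a window (52 genes), in 3.45% of the 203 lower genes (7 genes) and in 4.22% of all. AANNGAAA, which overlaps the ISRE core, was in 39.6% of higher genes, 15.3% of lower genes and 21.8% of all. TTCNNNGAA, the gamma-activated site read by STAT proteins, was in 17.2% of higher genes, 4.93% of lower genes and 8.5% of all. The NF-kB motif was in 15.3% of higher genes, 10.8% of lower genes and 12.5% of all. AGATAA, the site of GATA factors, was in 10.7% of higher genes, 7.39% of lower genes and 8.07% of all. All were searched on both strands, and over all 32851 windows the ISRE core was in 3.44%.

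The ISRE core was in 8 of 13 interferon genes, in 20 of 47 interferon-stimulated genes with a window and in 10 of 17 genes linked to interferon gamma. The stretch of Ifnb1 printed above has AANNGAAA matches and an NF-kB match but no ISRE core, and Ifna4 has an ISRE core. Among the interferon-stimulated genes the ISRE core was in 3 of the 10 called and in 17 of the 37 not called, Isg15 and Ifit1 among the latter. These are counts of letters in a fixed window, not of bound sites.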

How the data were processed

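RNA was measured in mouse spleen by stranded mRNA sequencing from 500 ng of total RNA, per the labels' protocols. The submitters' processing notes name TopHat2 2.0.6 and TopHat, HTSeq, SAMtools 1.4, edgeR and FastQC, and the builds GRCm38 and mm10, without roles. The authors deposited a signal value per gene and library, headed as edgeR-normalised CPM, and 99.99% of values were whole multiples of what 1 read is worth (within 0.01 reads), so counts were recovered from the deposited values. Of 39184 lines, 5 without a gene name, 699 named #N/D, 27 whose names had turned into date numbers and 113 extra lines of 87 repeated names were left out. No column of per-sample values was left unmapped. The lines without a name held 33.7% to 46.1% of the reads of the 6 libraries.

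Genes were tested where 2 or more of the 6 libraries reached 1 CPM, as log2(CPM + 0.5) with limma 3.58.1 (R 4.3.3), with a mean-variance trend, on these 6 libraries alone. P-values were adjusted by Benjamini and Hochberg over all genes tested, with a threshold of 0.05. Adding 0.5 draws differences of low genes towards 0. Read ratios with 95% counting intervals are therefore given for these and for Ifng, with a floor of 3 reads over the group. Intervals and floors cover counting error only, since reads copied by PCR are not independent. Levels are compared between libraries, not between genes.

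Named genes are the 10 largest rises and falls whose mean is 5 CPM or more and whose groups do not overlap (numbered gene models and receptor segments apart), up to 4 members of each of 29 lists with the smallest adjusted p, and a fixed panel; other list members are named by their role, and a few genes that the rule names are not reported here. The members and lists were chosen with earlier results of these data known. Alternatives were other pseudocounts (0.1 and 2), filters, scalings, library weights, a replicate block, an erythroid covariate, all 17 libraries, edgeR 4.0.16, DESeq2 1.42.0 and leaving out each library. Leaving out both poly(I:C) library 1 and pppNS library 3 was added after seeing the data. The test was tried on simulated data.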

Additional observations from a re-analysis of the deposited data

Results flagged for a closer look

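Lines without a gene name were used in no comparison, and their share of the deposited values was higher in all 6 libraries than in the 5 controls, where it was 28.1% to 31.9%. It was 37.7%, 37.4% and 39.9% in poly(I:C) libraries 1, 2 and 3, and 35.1%, 33.7% and 46.1% in pppNS libraries 1, 2 and 3. One of these lines alone held 114843 CPM in pppNS library 3, against 9017 to 15798 CPM in the controls. It also lay above the controls in poly(I:C) library 2, at 26878 CPM, and in poly(I:C) library 3, at 16142 CPM.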

How the results depend on the processing

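The main count was 684 calls, 419 higher and 265 lower with poly(I:C). It came to 3592 with all 17 libraries (2110 and 1482), 374 with no filter (231 and 143, of 23089 genes tested), 441 with a filter at 5 CPM (289 and 152) and 516 with median-of-ratios scaling (271 and 245). Quantile scaling gave 303 (160 and 143), scaling to 1 common sum over named genes 140 (49 and 91), and library weights 6859 (3527 and 3332), with weights from 0.066 for pppNS library 3 to 42.6 for poly(I:C) library 3. The erythroid covariate gave 323 (204 and 119), edgeR 500 (194 and 306) and DESeq2 1797 (963 and 834, with 12 adjusted p-values missing). Leaving out a library gave 10 to 1768 calls, with 10 to 937 higher and 0 to 831 lower. Leaving out both poly(I:C) library 1 and pppNS library 3 gave 1985 (1046 and 939). A pseudocount of 0.1 or 2 gave 617 and 688.

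The replicate block gave 173 calls, 129 higher and 44 lower. Same-numbered libraries deviated together with correlations of 0.444, -0.085 and 0.167, so the numbers are not known to pair the libraries. None of the 684 genes was called with the opposite sign under any of these alternatives. In all 684 the groups did not overlap, so leaving out 1 library could not turn their sign. The kept sign in those 6 fits therefore adds no support, and only 10 genes were called in all 6. The only named gene whose called value turned was Hba-a1, an adult globin gene at -0.49 and not called: it was 1.4 with library weights (adjusted p = 0.0205) and 1.83 without both libraries (adjusted p = 0.0454), and ran from -1.17 to 0.87 when 1 library was left out. Of the 29 list medians, 18 kept their sign under all alternatives and 11 did not; the latter include the erythroid, cell cycle, ribosomal and monocyte lists. The cause of these differences was not tested. With 3 libraries a group, differences under 2-fold were largely beyond reach.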

Other observations

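A few genes called outside the lists were picked after their values were seen and are given as values only. Of the Notch pathway, which shapes marginal zone B cells, the receptor gene Notch1 was higher with poly(I:C), at 295, 172 and 219 CPM against 86.7, 64.7 and 42.2 CPM with pppNS. Its feedback inhibitor Nrarp was lower, at 0.508, 1.33 and 0.692 CPM against 3.85, 5.67 and 9.57 CPM. The Fringe gene Lfng, which modifies Notch, stood at 23, 17.4 and 21.3 CPM against 47.0, 57.2 and 41.8 CPM and was lower too. Dtx1, a target of Notch counted above with the B cell genes, was likewise lower.

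Il2ra, the alpha chain of the IL-2 receptor, stood at 135, 66.5 and 84.2 CPM against 13.7, 7.49 and 7.5 CPM, and Myc, a regulator of cell growth, at 493, 321 and 387 CPM against 122, 89.6 and 66.5 CPM, and both were called higher. The cytokine gene Il22 had 367 reads with poly(I:C) and 1 with pppNS (ratio 435, 95% counting interval 77.5 to 17219), and it reached 1 CPM with poly(I:C) only. The 2 chemokine receptor genes picked differed in opposite directions: Cxcr5, of B cell follicles, stood at 383, 229 and 279 CPM against 96.8, 81.6 and 57.4 CPM, while Cxcr3, the receptor of Cxcl9 and Cxcl10, stood at 1.47, 0.845 and 0.884 CPM against 4.88, 5.96 and 5.97 CPM. The controls held 98.8 to 122 CPM of Cxcr5 and 9.89 to 18.2 CPM of Cxcr3. Thus Cxcr3 was lower than in controls in both treated groups, while its ligand gene Cxcl9 was higher in both.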
